A study of Mus musculus with 9 samples.

Results

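The Slit, Robo and netrin guidance genes are a set of 10 genes, picked by name from 21887 protein-coding mouse genes: the ligand genes Slit1, Slit2 and Slit3, their receptor genes Robo1, Robo2, Robo3 and Robo4, the ligand gene Ntn1 and the netrin receptor genes Dcc and Unc5b. The set was chosen with earlier results of these data known. A peak was given to a gene when its summit, the position of highest signal, lay inside the gene body, or, between genes, when that gene was the nearest within 100 kb. TWIST1 was immunoprecipitated with an antibody against it, and the DNA that came with it was sequenced (ChIP-seq), in embryoid bodies made from mouse embryonic stem cells (labelled strain C57BL/6) and differentiated for 3 days in neurogenic medium, towards neuroepithelium. The OE cells, of the A2loxcre line, lacked their own Twist1 (Twist1-/-) and made Flag-tagged TWIST1 from a cassette switched on by doxycycline. The KO cells were Twist1-/- too but had no such cassette. Both received doxycycline for 16 h, so the TWIST1 of the OE cells came from a transgene induced in a null line, and no group had TWIST1 at its own level. Peak lists were analysed for 4 OE ChIP libraries, numbered 1 to 4, 2 KO ChIP libraries, numbered 2 and 3, and 1 KO input, which is chromatin DNA without immunoprecipitation. The inputs of the OE cells were not analysed here. RNA was not measured in these libraries, so cell identity could not be checked by markers, and a peak near a gene does not show that the gene was regulated.

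Slits and netrins are secreted proteins that steer growing axons and migrating cells, among them neural crest cells. Slits mostly repel cells that carry Robo receptors. Netrin attracts through DCC and repels through UNC5 receptors. TWIST1 is a basic helix-loop-helix factor of neural crest and mesenchyme. It binds DNA as a dimer at E-boxes, short sites of the form CANNTG.

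Of the 10 genes, 6 held at least 1 region that was found in all 4 OE libraries and overlapped no KO ChIP or KO input peak. These were Slit1, Slit3, Robo1, Ntn1, Dcc and Unc5b, with 18 such reproducible regions between them. Of all protein-coding genes, 30.3% held one. The members are long, however: 7 of them had bodies of at least 100 kb, and 5 of those 7 had a region, against 62.4% of the 2429 genes of at least that length. Slit2, Robo2, Robo3 and Robo4 had none. The strongest region lay inside Ntn1. The region at the annotated start of Unc5b ranked high in OE libraries 1 and 4 and low in OE libraries 2 and 3.

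The strongest Ntn1 region is shown by sequence because the hairpin of an annotated microRNA gene, Mir6406, lies directly under its summits. The region spanned chromosome 11, 68219885 to 68221728 (mm10). In OE libraries 1 to 4 the summits lay at bases 89, 70, 61 and 58 of the 120 bases of the hairpin. The hairpin is printed from RefSeq (GRCm38.p6, chr11:68220892-68221011, plus strand), with every E-box in capitals. The pattern CANNTG reads the same on both strands, and 2 of those shown, CACAUG and CAUGUG, share bases.
Mir6406 hairpin: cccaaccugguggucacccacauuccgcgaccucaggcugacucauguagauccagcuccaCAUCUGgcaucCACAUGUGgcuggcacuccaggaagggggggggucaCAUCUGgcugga
The first of these E-boxes, CAUCUG, and the next, CACAUG, stood with a gap of 5 bases between them.
paired E-boxes in the Mir6406 hairpin: CAUCUGgcaucCACAUG
This pair spanned 68220953 to 68220969. It lay 11, 0, 1 and 4 bp from the summits of OE libraries 1 to 4. A pair of E-boxes with this gap, CANNTGNNNNNCANNTG, was present in 0.323% of 32851 stretches of the same length, 120 bases, taken from the upstream end of the RefSeq promoters. A single CANNTG was present in 41.8% of them. Over whole RefSeq promoters the pair was present in 0.767%. Among the 1573 promoters that held the summit of a reproducible region it was present in 2.35%. Of the 10375 reproducible regions of the genome, 3 had their summit in a listed microRNA hairpin, those of Mir6406, Mir8101 and Mir8120.

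The Unc5b promoter is shown because a peak of every OE library lay over it, and those of Slit3, Robo1 and Robo2, chosen after their values were seen, because some of the libraries had a peak there. Each is 300 bases long, from 250 before to 50 after a listed start, which for Robo1 and Robo2 lies inside the gene body, and is printed from RefSeq (GRCm38.p6) with any E-box in capitals.
Unc5b promoter (chr10:60831532-60831831, minus strand): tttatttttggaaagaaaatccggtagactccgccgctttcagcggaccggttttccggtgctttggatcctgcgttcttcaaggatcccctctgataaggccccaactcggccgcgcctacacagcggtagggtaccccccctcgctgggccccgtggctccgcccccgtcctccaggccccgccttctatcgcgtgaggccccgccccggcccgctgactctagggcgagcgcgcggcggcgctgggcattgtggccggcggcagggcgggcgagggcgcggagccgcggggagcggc
Slit3 promoter (chr11:35121206-35121505, plus strand): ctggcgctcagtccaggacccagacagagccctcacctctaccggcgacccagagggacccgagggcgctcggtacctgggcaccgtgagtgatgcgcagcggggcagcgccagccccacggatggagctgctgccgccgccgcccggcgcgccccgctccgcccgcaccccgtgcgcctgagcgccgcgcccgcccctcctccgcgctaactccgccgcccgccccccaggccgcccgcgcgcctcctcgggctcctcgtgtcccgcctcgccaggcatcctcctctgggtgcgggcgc
Robo1 promoter (chr16:72662899-72663198, plus strand): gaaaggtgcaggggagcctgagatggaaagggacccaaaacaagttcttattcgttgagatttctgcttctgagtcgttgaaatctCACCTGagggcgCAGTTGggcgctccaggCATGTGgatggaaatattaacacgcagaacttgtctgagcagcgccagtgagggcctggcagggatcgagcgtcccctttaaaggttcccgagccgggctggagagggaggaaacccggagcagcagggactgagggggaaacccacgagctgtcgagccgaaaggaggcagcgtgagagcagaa
Robo2 promoter (chr16:74411776-74412075, minus strand): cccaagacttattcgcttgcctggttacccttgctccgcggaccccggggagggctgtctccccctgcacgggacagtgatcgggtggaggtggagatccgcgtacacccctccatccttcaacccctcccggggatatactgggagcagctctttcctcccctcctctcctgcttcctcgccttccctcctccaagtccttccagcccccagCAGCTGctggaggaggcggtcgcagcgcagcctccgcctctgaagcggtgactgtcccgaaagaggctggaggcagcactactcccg
The Unc5b and Slit3 windows held no CANNTG. The Robo1 window held 3. The first, CACCTG, began at position -164 from the listed start. The next, CAGTTG, began at -152 and the last, CATGTG, at -135. The Robo2 window shown held CAGCTG at -37. The Robo3 and Robo4 promoters, where no library had a peak, held 2 E-boxes each, and the Slit2 promoter, also without a peak, held none. CANNTG was found in 72.3% of all 32851 RefSeq promoters and in 71.2% of the 1573 promoters that held the summit of a reproducible region. For CAGGTG or CACCTG, the 2 strands of one form, the shares were 20.2% and 30.6%. For CAGATG or CATCTG they were 17.2% and 15.5%, for CAGCTG 16.3% and 22.6%, for CATATG 3.91% and 1.40%, and for CACGTG 7.15% and 12.5%. Promoter sequences were matched for 7 members, of which Robo2 had 3 and the others 1. Slit1, Ntn1 and Dcc had none. A match says only that these letters are present, and no match only that they are not in this window.

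The libraries differed in list length and background level. Their read totals were not in the sources used here, so sequencing depth could not be compared. The lists held 14078 to 106750 peaks on the 21 main chromosomes in the OE libraries, 94 and 62 in KO libraries 2 and 3, and 1642 in the KO input. The commonest background level, in fragments stacked at a position and recovered from the fold and p-value of each peak, was 1.00, 5.38, 5.29 and 1.20 in OE libraries 1 to 4. It was 4.73 and 5.09 in KO libraries 2 and 3. OE libraries 2 and 3 thus stood above OE libraries 1 and 4 in background. These sets are defined by background and are not groups of the study.

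The first comparison set the cells that made TWIST1 against those that could not. The 10 genes together received 31, 191, 149 and 23 peaks in OE libraries 1 to 4, against 0 in KO library 2, 0 in KO library 3 and 0 in the KO input. The groups did not overlap. The lists had unlike limits, with a lowest −log10 p of 4.31, 3.67, 3.72 and 4.59 in OE libraries 1 to 4. It was 7.48 and 7.14 in KO libraries 2 and 3, so the OE counts include peaks weaker than any listed in KO. The mean was 98.5 ± 84.4 peaks in OE (SD, n = 4) and 0 in both KO libraries (n = 2). The difference of mean log2(count + 1), OE minus KO, was 6.10. The two-sided exact permutation test over the 15 ways of choosing 4 OE libraries gave p = 0.0667, the smallest this design allows, so no difference could pass the usual threshold. A p at this floor does not measure the spread among the OE counts. The libraries compared are described as biological replicate experiments. Peaks at the members made up 0.139%, 0.179%, 0.171% and 0.163% of the lists of OE libraries 1 to 4. With 94 and 62 peaks listed, a count of 0 allows a share of up to 3.19% in KO library 2 and 4.84% in KO library 3, so with lists this short the share could not be compared. Over the genome, 0.224% of genes had a KO ChIP peak. In OE libraries 2 and 3, whose background was close to that of the KO libraries, the best peak of each of the 18 regions had a −log10 p of at least 9.16, above the lowest listed in KO library 2 (7.48) and KO library 3 (7.14).

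**Figure D1:**
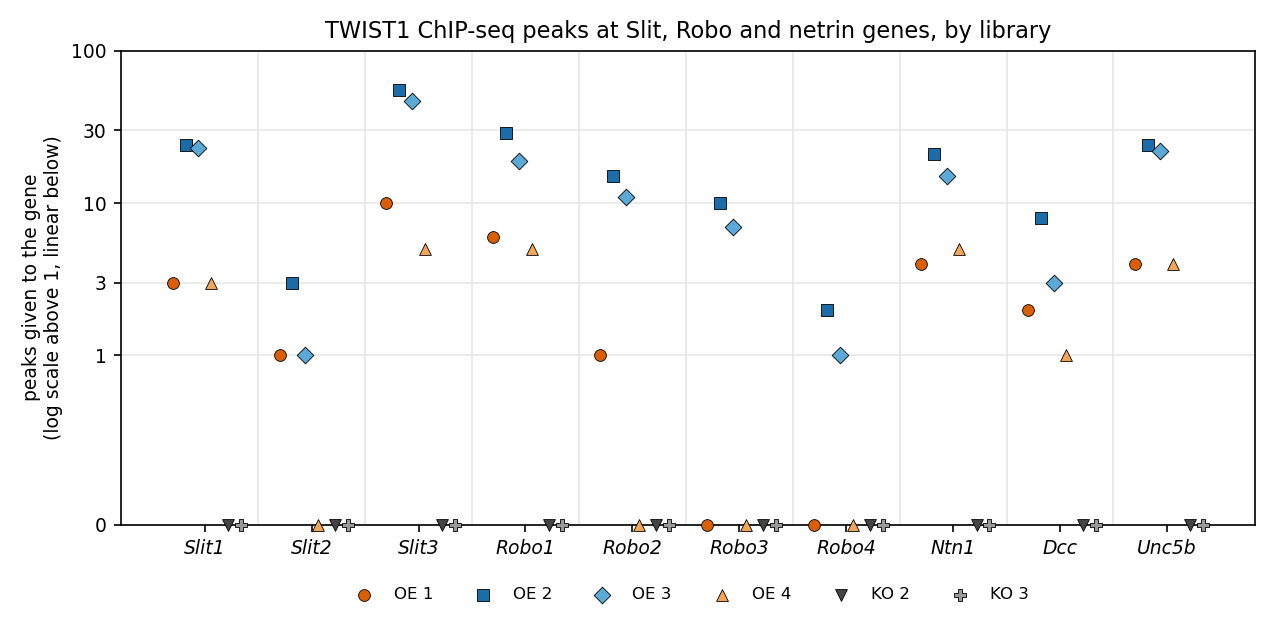
Number of peaks given to each of the 10 genes (horizontal axis) in each library, on a vertical axis that is logarithmic above 1 and linear below; each point is 1 library, OE left of KO. Both KO libraries sit at 0 for every gene, and OE libraries 2 and 3 sit above OE libraries 1 and 4 for 9 genes, with 55 and 47 against 10 and 5 peaks at Slit3.

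Gene by gene, 6 members had more peaks in every OE library than in either KO library, against 35.0% of all protein-coding genes. Among members of at least 100 kb it was 5 of 7, against 69.7% of genes of that length. They are the same 6 genes that held reproducible regions. This follows largely from the definitions, since both ask for peaks in all 4 OE libraries and 0.224% of genes had a KO ChIP peak. Of all genes, 7651 passed and 7673 had a peak in all 4 OE libraries. Slit2 and Robo2 had a peak in OE libraries 1 to 3 but none in OE library 4. Without that library 8 of 10 members had more peaks in every OE than in either KO library, against 46.0% of all genes. Among members of at least 100 kb it was then 7 of 7, against 83.0%. A region shared by OE libraries 2 and 3 alone was found for 10 of 10 members, against 74.4% of all genes. For a region in at least 2 of 4 OE libraries it was also 10 of 10, against 75.0%. The shares among genes of at least 100 kb were not computed for these 2 settings, so gene length was not taken into account there.

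The number of regions was also set against the length of the genes. The territory of a gene is the stretch of genome whose positions would be given to it. The 10 members together had 6.00 Mb of territory and 3.00 reproducible regions per Mb, against 4.92 per Mb over all genes and 3.58 per Mb over genes of at least 100 kb. Counted as single peaks, the members received 0.517, 3.18, 2.48 and 0.384 per 100 kb in OE libraries 1 to 4, beside 1.05, 5.01, 4.16 and 0.672 over the genome. At the density of the whole genome the members would have received 29.5 regions, against the 18 found. That density is above the one of genes of at least 100 kb. The numbers that would follow from the density of such long genes were not computed, here or for the single genes below. Unc5b had 4 regions where 0.855 would follow from its territory, and Ntn1 3 where 0.990 would. Slit1 had 1 where 0.787 would, Slit3 4 where 3.53 would and Robo1 5 where 6.00 would. The counts below came mainly from the very long genes, since Dcc had 1 where 6.38 would and Robo2 0 where 8.37 would, and Slit2 had 0 where 2.26 would. These differences were not tested.

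Of the ligand genes, Slit1 (chromosome 19, 41597824 to 41747275) encodes a midline repellent of the nervous system. It received 3, 24, 23 and 3 peaks in OE libraries 1 to 4 and 0 in KO libraries 2 and 3. Its lone reproducible region, at 41734097 to 41735487, lay 12.5 kb from the upper end of the body. The folds there were 64.6, 149, 167 and 49.1 in OE libraries 1 to 4, and the percentiles of fold within each list 97.5, 99.6, 99.6 and 96.9. A percentile is the share of a library's peaks with a fold no higher, and folds are the values of the authors' caller for single peaks. The region was thus among the top of each list, although in OE libraries 1 and 4 few other Slit1 peaks were listed. Without OE library 1 Slit1 had 3 regions, without OE library 4 it had 2, and OE libraries 2 and 3 alone shared 18.

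Slit2 (chromosome 5, 47981291 to 48307735) encodes the most studied Slit ligand in mammals and received few peaks. There were 1, 3, 1 and 0 in OE libraries 1 to 4, with the best folds 6.49, 9.87 and 6.81 in OE libraries 1 to 3. The OE and KO groups overlapped at 0 through OE library 4. No peak lay over the listed promoter of Slit2. The nearest reproducible region lay 2123756 bp away, nearer to Lcorl. Slit2 and Slit3 are host genes of the microRNA genes Mir218-1 and Mir218-2. The nearest reproducible region lay 2366407 bp from the Mir218-1 hairpin and 152676 bp from that of Mir218-2. Peaks that formed no reproducible region lay nearer. In OE libraries 1 to 4 the nearest summit was 14460, 6531, 39383 and 1300794 bp from the Mir218-1 hairpin. For Mir218-2 it was 6465, 4749, 4757 and 152828 bp away. The OE library 1 summit there lay 488.9 kb from the Slit3 start, where OE libraries 2 and 3 also listed a peak. The folds at that place were 7.99, 4.07 and 7.47 in OE libraries 1 to 3.

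Slit3 (chromosome 11, 35121456 to 35708507), the third Slit ligand, also known from the diaphragm and heart, had the most peaks of the 10 genes in OE libraries 1 to 3. It received 10, 55, 47 and 5 in OE libraries 1 to 4, against 0 in both KO libraries. Its 4 reproducible regions were a region 35166 bp outside the body, at 35085824 to 35086695, and 3 regions inside it, 174, 205 and 263 kb from the gene start. The innermost, at 35383444 to 35384899, was the strongest, with folds of 23.96, 36.7, 42.4 and 9.99 in OE libraries 1 to 4. The middle pair of regions overlapped the long noncoding RNA gene Gm46277. Over the Slit3 promoter printed above, OE libraries 1, 3 and 4 had a peak, with folds of 12.5, 3.97 and 6.81, and OE library 2 had none. The summits lay at 0.009 and 0.089 kb from the gene start in OE libraries 1 and 4, but at -0.472 kb in OE library 3. Farther upstream, OE libraries 1 to 3 had a peak at -1.42, -1.25 and -1.24 kb, with folds of 11.0, 8.46 and 10.8. Without OE library 4 Slit3 had 8 regions, and OE libraries 2 and 3 alone shared 36.

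Ntn1 (chromosome 11, 68209364 to 68386826) encodes netrin-1, the main netrin of the embryonic nervous system. It received 4, 21, 15 and 5 peaks in OE libraries 1 to 4, with none in KO. At the region over Mir6406 the folds were 73.4, 260, 232 and 52.2 in OE libraries 1 to 4, from 146, 1656, 1462 and 114 fragments at the summit. The mean fold was 154 ± 107 (SD, n = 4). Its percentiles were 98.0, 99.8, 99.8 and 97.2 (mean 98.7 ± 1.30, SD, n = 4), the highest mean of the 18 regions. It lay 11.6 kb from the lower end of the gene body. The second Ntn1 region, at 68378337 to 68380070, had folds of 14.97, 26.8, 28.3 and 8.17. The other Ntn1 region, at 68384336 to 68387693, ran over the upper end of the body and was the widest of the 18 at 3358 bp. By the best peak of each library, its summits differed by up to 2227 bp. Those of OE libraries 2 and 3 lay at 68384666 and 68384658 and those of OE libraries 1 and 4 at 68386114 and 68386885. OE library 4 had a further peak here, 176.726 kb from the lower end (fold 12.7), near the OE library 1 summit at 176.75 kb. OE library 2 had weaker peaks at 177.152 and 177.864 kb (folds 3.13 and 7.05). The best peaks here were therefore not at a single shared summit. Of 7673 genes with a peak in all 4 OE libraries, Rnf19a and Slc31a2 had best-peak percentiles nearest to those of Ntn1, at a Euclidean distance of 0.153 and 0.217 percentile points over the 4 libraries.

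**Figure D2:**
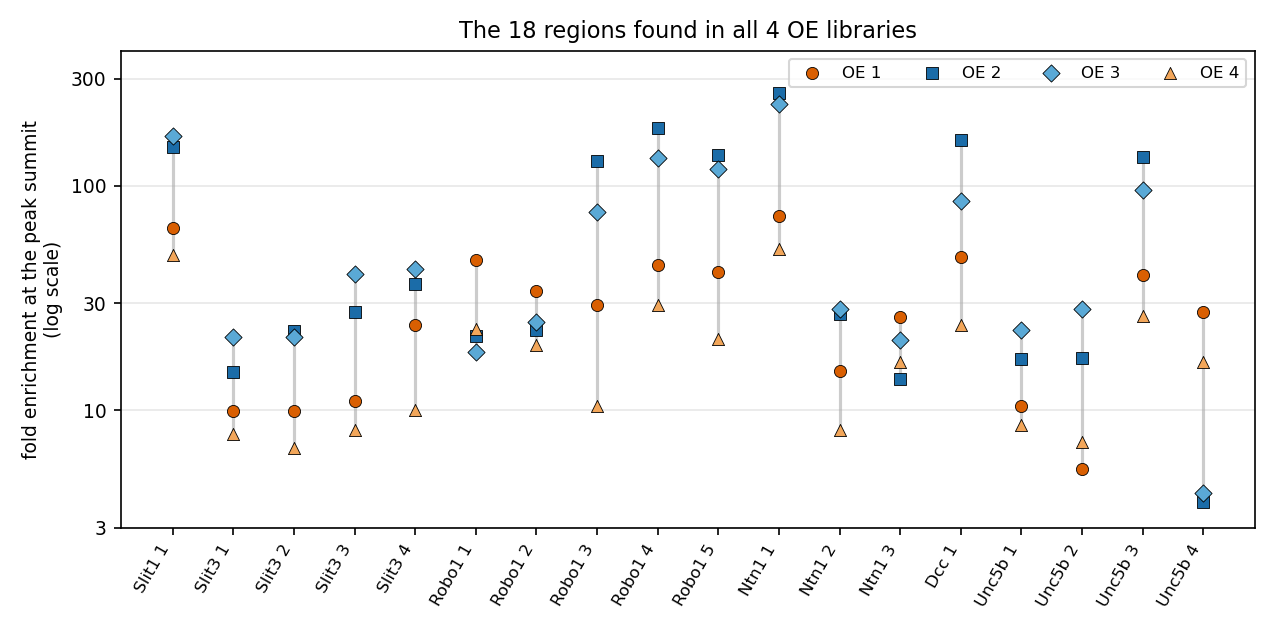
Fold enrichment at the summit (vertical, log scale) of the 18 reproducible regions, numbered along each gene from its lower coordinate, in OE libraries 1 to 4 (1 point each; the grey line joins lowest and highest). Ntn1 1, Slit1 1, Robo1 4 and Robo1 5 reach over 100 in OE libraries 2 and 3, and Unc5b 4 is at 27.4 and 16.3 in OE libraries 1 and 4 against 3.92 and 4.29 in OE libraries 2 and 3.

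Among the Slit receptors, Robo1 (chromosome 16, 72027518 to 73047491) carried all of the reproducible regions. Robo1 is a main Slit receptor of axons and migrating cells. It received 6, 29, 19 and 5 peaks in OE libraries 1 to 4, with none in KO, and held 5 regions, where 6.00 would follow from its territory. The strongest, at 73015581 to 73017786, had folds of 44.4, 181, 134 and 29.5 in OE libraries 1 to 4. A neighbour nearer the start, at 73007139 to 73008239, had folds of 29.4, 129, 76.6 and 10.4. They lay 353822 and 344449 bp from the start of the listed promoter. A region beyond the upper end of the body, 73245 bp away and 771240 bp from Robo2, had folds of 41.4, 137, 119 and 20.9. It overlapped the long noncoding RNA gene 4930500H12Rik.

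The other 2 Robo1 regions had their highest fold in OE library 1. At 72596379 to 72597037 the folds were 46.9, 21.5, 18.3 and 23.2 in OE libraries 1 to 4, 66405 bp from the listed start, and at 72686405 to 72687106, 23672 bp from it, they were 33.9, 22.9, 24.8 and 19.5. As percentiles the first ran from 87.8 to 95.5 and the second from 83.1 to 95.04, so both stood high in every list. Over the listed Robo1 promoter, an internal start with 3 E-boxes, OE libraries 2 and 3 had a peak, with folds of 4.07 and 3.18, and OE libraries 1 and 4 had none. Near the lower end of the body, OE library 1 had a peak at 2.16 kb with a fold of 4.49. OE library 2 had peaks at 0.663 and 1.99 kb with folds of 5.17 and 4.55. OE library 3 had one at 0.677 kb with a fold of 3.81, and OE library 4 had none there.

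Robo2 (chromosome 16, 73891976 to 75447443), a receptor with roles like those of Robo1, is the longest member at 1555 kb. It received 1, 15, 11 and 0 peaks in OE libraries 1 to 4, so here too OE library 4 was level with KO. Its best folds were 4.49, 20.8 and 9.38 in OE libraries 1 to 3, at different places in OE library 1 and in OE libraries 2 and 3. At 1 of its 3 listed starts OE libraries 2 and 3 had a peak, with folds of 4.86 and 4.45. OE libraries 2 and 3 alone shared 10 regions.

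Robo3 and Robo4 are short neighbours on chromosome 9 (37416045 to 37433436, and 37401902 to 37414023). Robo3 is the divergent receptor that lets commissural axons cross the midline, and Robo4 is a receptor of endothelial cells. Robo3 received 0, 10, 7 and 0 peaks in OE libraries 1 to 4 and Robo4 received 0, 2, 1 and 0. The best Robo3 folds were 13.9 and 11.4 in OE libraries 2 and 3, and those of Robo4 were 6.11 and 4.29. No library had a peak over the promoter of either gene. For both, the OE and KO groups overlapped, since OE libraries 1 and 4 listed no peak.

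**Figure D3:**
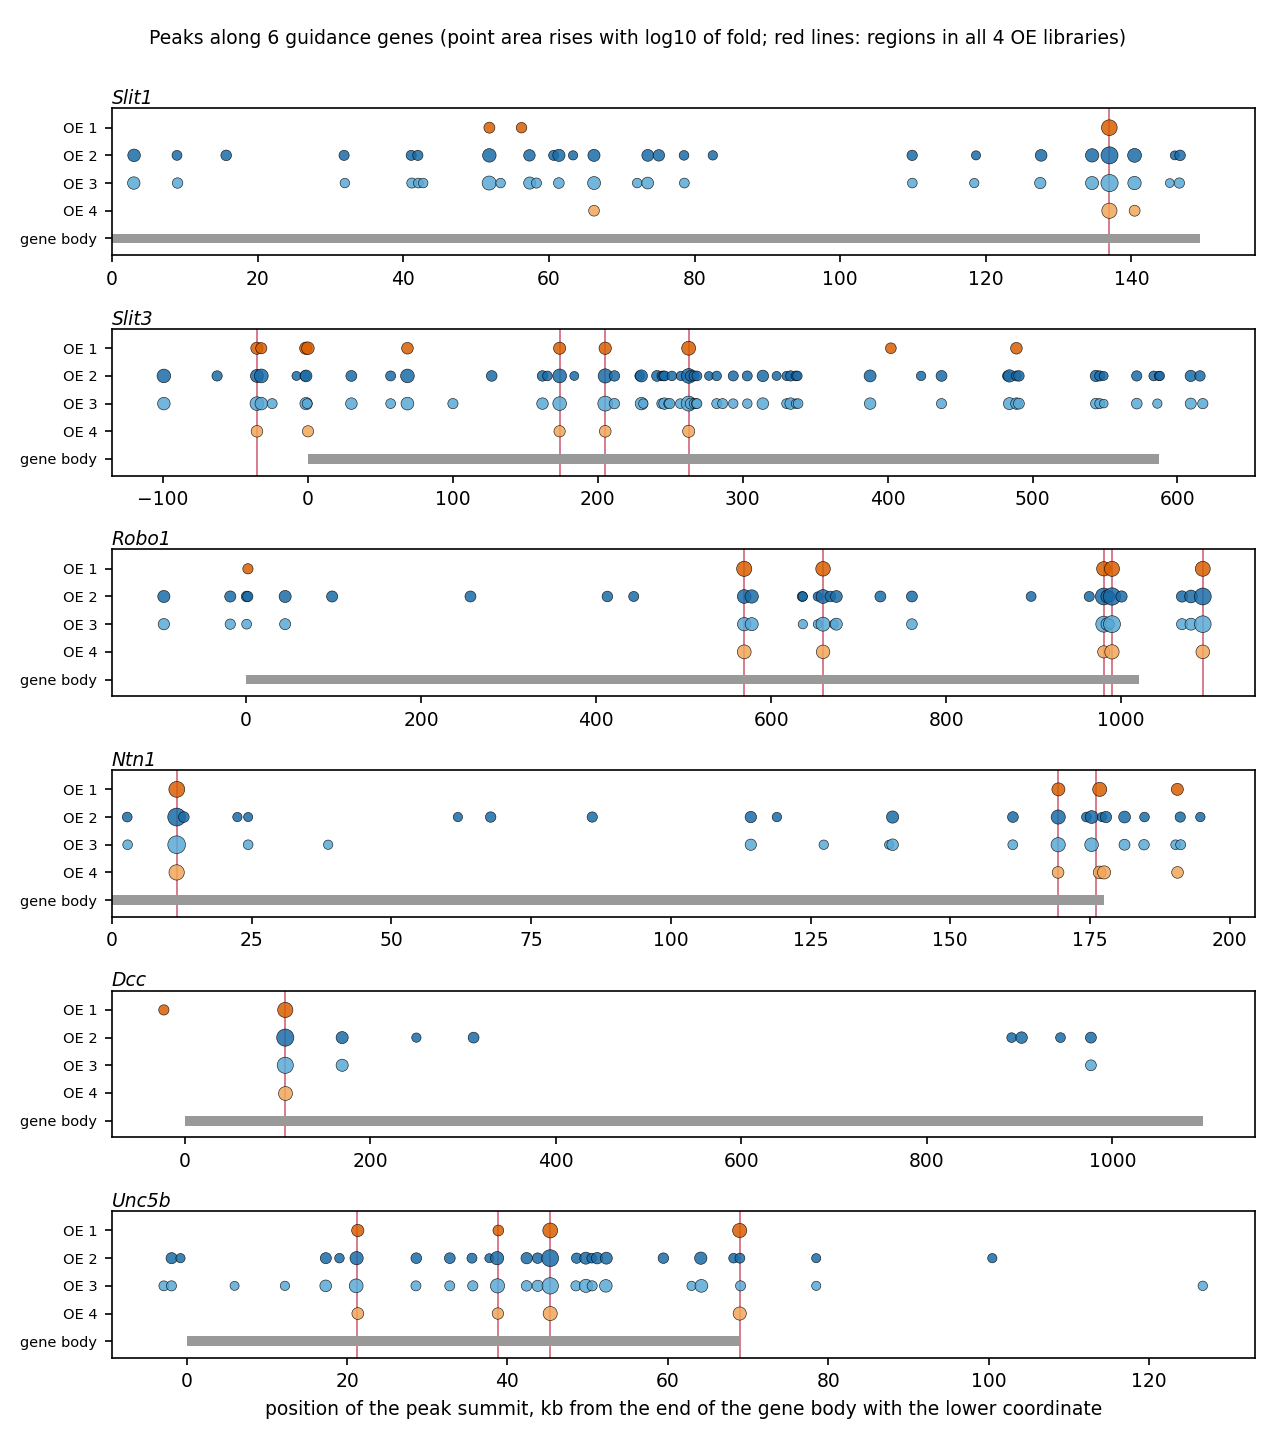
Peaks of each OE library (rows) along the 6 members with reproducible regions, by distance of the summit in kb from the lower end of the gene body (grey bar); point area rises with log10 of fold and red lines mark reproducible regions. At Robo1 the strongest point of OE library 1 lies at 569 kb (fold 46.9), and that of every other OE library at 989 kb. At Dcc 1 position, 108 kb from the lower end, is shared by all 4 libraries.

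Of the netrin receptors, Dcc (chromosome 18, 71253613 to 72351228), the attractive receptor, had few peaks for its 1098 kb. It received 2, 8, 3 and 1 in OE libraries 1 to 4, with none in KO. A single region, at 71361478 to 71362431, was found in all 4, with folds of 48.4, 160, 85.3 and 24.1 and percentiles of 95.8, 99.6, 99.0 and 88.6. The 4 summits there fell within 13 bp. The next best Dcc peak of OE library 2 had a fold of 9.72 and that of OE library 3 a fold of 10.0, so 1 site stood apart within the gene in both.

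Unc5b (chromosome 10, 60762594 to 60831581), a repulsive netrin receptor, received 4, 24, 22 and 4 peaks in OE libraries 1 to 4, with none in KO. In OE libraries 1 and 4 each of the 4 peaks belonged to a reproducible region. The strongest region, at 60807225 to 60808587, lay 23.7 kb from the gene start, with folds of 39.9, 135, 96.1 and 26.3 in OE libraries 1 to 4. Its summits fell within 10 bp of each other. A pair of weaker regions lay 47.7 and 30.2 kb from the start, with folds of 10.5, 16.9, 22.9 and 8.63, and of 5.49, 17.1, 28.3 and 7.26. The number of Unc5b regions was 2 with peaks of −log10 q of at least 10, and also 2 with OE lists of equal length.

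The fourth Unc5b region, at 60830364 to 60832499, covered the promoter printed above, and its middle summit lay 13 bp from the gene start. Its folds were 27.4 and 16.3 in OE libraries 1 and 4 and 3.92 and 4.29 in OE libraries 2 and 3. Its percentiles were 88.4 and 77.1 in OE libraries 1 and 4, against 28.5 and 35.2 in OE libraries 2 and 3. It was the single member region that ranked higher in both of OE libraries 1 and 4 than in both of 2 and 3. The opposite held for 16 of the 18 regions. Over all 10375 reproducible regions these shares were 20.5% and 65.3%. The mean percentile in OE libraries 1 and 4 less that in OE libraries 2 and 3 was 50.9 at the Unc5b start. Its median was 6.96 over the 3207 regions of the genome within 1 kb of a gene end, of which 5.27% reached the Unc5b value. Over the 7168 regions farther away the median was -26.8, and 0.865% reached that value. The difference was above 0 for 58.7% of the regions within 1 kb and for 12.1% of those farther away. Of the 18 member regions, 17 were among those farther away. The 2 sets of libraries differ in background level, and the part of depth in this pattern was not tested.

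**Figure D4:**
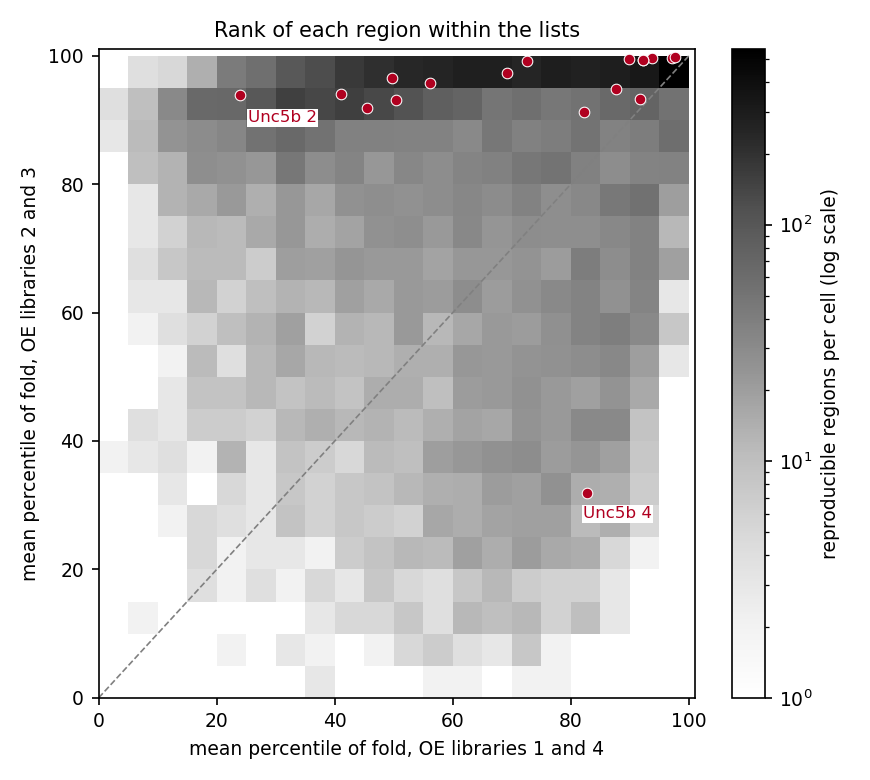
Mean percentile of fold in OE libraries 1 and 4 (horizontal) against OE libraries 2 and 3 (vertical) for all 10375 reproducible regions (grey cells, log colour scale) and the 18 member regions (red points); the dashed line marks equal values. Only Unc5b 4, the region at the gene start, lies well below the line, and Unc5b 2 is the member farthest above it.

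The 18 regions were mostly inside genes and away from their ends. Within the bodies lay 16, and 2 were between genes. By the median of the 4 summits, 1 of the 18, at the Unc5b start, lay within 1 kb of a gene end, against 30.9% of all reproducible regions. At the upper end of Ntn1 the best summits of OE libraries 1 and 4 also lay within 1 kb of the end of the body, as did weaker peaks of OE library 2. Most members have bodies far longer than the median of 17.2 kb over protein-coding genes, so a smaller share of their length lies near a gene end. The 30.9% was not limited to long genes, and the part of gene length in this difference was not tested. The median width of the 18 regions was 1424 bp, against 1135 bp over the genome. In 14 of the 18 regions the summits of all 4 OE libraries fell within 100 bp of each other, against 53.0% of all reproducible regions, and the median spread was 35.5 bp. The median fold of the 18 was 28.4, 27.1, 34.5 and 16.3 in OE libraries 1 to 4, beside 15.5, 16.1, 15.1 and 10.9 over all reproducible regions. As percentiles the medians were 89.0, 95.6, 96.6 and 77.1, beside 73.1, 91.2, 90.0 and 58.0.

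A further list of 40 genes of these pathways covered other netrins and receptors, their partners and their intracellular effectors. It was written from general knowledge with earlier results of these data known, so its shares are a description and cannot serve as support. Of these, 33 had a reproducible region, against the 30.3% of all genes, and 37 had more peaks in every OE than in either KO library, against 35.0%. Of the 21 with bodies of at least 100 kb, 17 had a region, against 62.4% of such genes. With OE lists of equal length 17 of 40 had a region, against 15.7% of all genes, and 14 of the 21 long ones did, against 40.8% of long genes. With every summit within 100 bp of the region's median summit it was also 17 of 40, against 19.1%, and 12 of 21, against 47.1%. Ranked by the mean percentile of their best region, 6 genes led the list. The first region lay 5012 bp from Neo1, which encodes neogenin, a receptor of netrins and of repulsive guidance molecules. Its folds were 60.9, 153, 124 and 41.3 in OE libraries 1 to 4. Next came Cables1, whose product binds Abl kinase, with a mean fold of 87.2 ± 59.5 (SD, n = 4), and the Slit-Robo GTPase-activating gene Srgap3 with 69.8 ± 48.5. Rgma, which encodes a neogenin ligand, had its best region 81981 bp away with 69.5 ± 50.4. Trio, an exchange factor gene that acts downstream of DCC, held 8 regions, the best with 26.3 ± 7.59, and the cell adhesion gene Dscaml1 had 1 with 22.97 ± 5.61. By mean fold, 4 other genes, named after their values were seen, stood above Trio and Dscaml1: Srgap2 (41.9), Unc5d (36.6), Draxin (32.8) and Pak1 (31.8). The 7 genes without a region were Flrt2, Flrt3, Nell2, Ntng1, Srgap1, Unc5c and Vasp, of which Nell2, Ntng1, Srgap1 and Unc5c had at least 1 peak in every OE library.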

How the data were processed

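ChIP-seq peak lists, 1 per library, were analysed for 4 OE ChIP, 2 KO ChIP and 1 KO input library, grouped by the sample titles. MACS2, BWA, Trimmomatic and Picard, and the builds mm10 and GRCm38.p5, are named in the submitters' processing notes. Their versions and settings, and the control of the caller, were not in the sources used here. A different control can change which peaks are listed and their fold. For each peak the authors' caller deposited a linear ratio, its fold over the local background level, and a −log10 p-value and −log10 q-value. The deposited score was not used.

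Python 3.11.15 was used with pandas 2.3.3 and numpy 2.4.6 for the lists, scipy 1.17.1 for tests and matplotlib 3.10.9 for plots. Coordinates count from 1, on the 21 main chromosomes of mm10. Genes were the 21887 protein-coding genes of a RefSeq table of GRCm38.p6, whose coordinates equal those of mm10. All 10 members and 40 pathway genes were matched. Summits were given to every gene body that held them, otherwise to the nearest gene within 100 kb. OE peaks sharing at least 1 bp were merged, and the region's summit is the median of the libraries' best summits. A whole-number pileup and a background level that give the listed fold and p-value (−log10 p within 0.001, or within 1e-05 of its size) were found for at least 90.3% of peaks in each library. Region and gene steps were tested on simulated data. Group counts were compared by exact permutation of mean log2(count + 1) over libraries, with a pseudocount of 1. A fixed rule named the 10 members, the 6 pathway genes whose best region had the highest mean percentile, and the 2 genes nearest in pattern to the leading member. Alternatives covered the q-value limit, distance, shared overlap, number of libraries, equal list lengths and each replicate left out. The members and lists were chosen with earlier results of these data known. E-boxes were sought only in RefSeq promoter and hairpin sequences, since no genome sequence was used here.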

Additional observations from a re-analysis of the deposited data

Results flagged for a closer look

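The Robo1 region at chromosome 16, 72596379 to 72597037, had a fold of 46.9 in OE library 1, far from the 18.3 to 23.2 of the other OE libraries. Its gap to the nearest value was 0.830 of the whole range, just past the 95% limit of Dixon's test for 4 values. Of 48 sets of 4 OE values examined this was the 1 that passed, and chance alone passes about 1 set in 20. As a percentile within its list the region did not stand apart.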

How the results depend on the processing

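The difference in peaks at the 10 genes kept its direction, OE above KO, in all 18 alternatives, and no exact p could pass the usual threshold at these group sizes. With 1 library left out it ranged from 5.60 to 6.60, with p of 0.1 or 0.2, the smallest then allowed. With OE and KO libraries 2 and 3 taken as pairs (replicate block), the mean difference of log2(count + 1) was 7.41, with an exact p of 0.5, the smallest that 2 pairs allow. Whether these numbers pair the libraries could not be checked, since both KO libraries had 0 peaks at the members, and the titles give no more than the number. On counts with no log the exact permutation p was 0.133. Members with a reproducible region numbered 6 in 19 of 21 alternatives. The share of all genes was 30.3% in the main setting, 15.7% with equal list lengths and 19.1% with summits within 100 bp of their median. Among genes of at least 100 kb these shares were 62.4%, 40.8% and 47.1%. Members numbered 10 with at least 2 of 4 OE libraries, against 75.0% of all genes, and 10 with OE libraries 2 and 3 alone, against 74.4%. The regions at the members then numbered 124 and 121, and 15 to 26 in the others. Pathway genes with a region numbered 17 with equal list lengths, which shorten 3 OE lists to 14078 peaks, and 17 with summits within 100 bp of their median, for which the cause was not tested. Of 210 counts for single members, 182 stayed within 1.5 times the main count, 26 were higher and 2 lower. Limiting every ChIP list to −log10 p of at least 7.48, chosen after seeing the data, left a difference of 5.90. The short KO lists limit what can be said of shares, and read totals were not in the sources used here.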
